A study of Mus musculus with 3 samples.

Results

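Carbonic anhydrases are zinc enzymes that interconvert carbon dioxide and bicarbonate, and 8 genes of the mouse family (Car2, Car3, Car4, Car8, Car9, Car12, Car13 and Car14) were followed in 3 pluripotent cell lines. They were taken by gene symbol from the probe table of the array and had been chosen with the signals and detection calls of these arrays in view, so their differences between cell types are given as a description, with no test. Of the 8 genes, 7 had a probe, 10 probes in all, among 16593 named genes on the array. No probe of Car8 was found in the table used here, and Car8 was not analysed here. All 7 genes had at least 1 probe that was detected on at least 1 array, which placed them among 8688 measured genes.

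Transcript levels came from Illumina bead arrays, with 1 array for each line. E3 (hybrid genetic background) and T9 (129 background) are epiblast stem cell lines (EpiSC), which resemble the epiblast of the implanted embryo, and OG2 (hybrid background) is an embryonic stem cell line (ESC), which resembles the earlier, preimplantation epiblast. The EpiSC grew on inactivated CF1 mouse embryonic fibroblasts in KSR medium with FGF2 at 5 ng/ml and were taken up with collagenase IV, with little feeder material carried along per the labels. OG2 grew on gelatin in KSR medium with PD0325901 (1 uM), which blocks MEK, CHIR99021 (3 uM), which blocks GSK3, and 1000 U of LIF, and was harvested on its dish. No line had a repeat culture, so cell type, medium, feeders and harvest cannot be told apart, and neither can line and genetic background between E3 and T9. The labelled cell types were checked against their markers: in EpiSC the naive factor gene Esrrb fell by 6.58 ± 0.50 in log2 intensity (limma SE) and the epiblast growth factor gene Fgf5 was at least 12.3-fold higher, with limma adjusted p of 0.0342 and 0.0317, and the POU factor gene Pou5f1 lay at 12.65 for E3, 12.41 for T9 and 12.53 for OG2. Of 9 measured naive genes 6 fell, of 7 post-implantation epiblast genes 3 rose, and of 5 genes shared by both states 0 passed. Of those 5, Pou5f1 was picked after its values were seen. The log2 difference of EpiSC from ESC was -1.45 for Nanog, -0.91 for Sox2, -0.19 for Sall4 and 1.59 for Lin28a. Not passing therefore does not mean equal levels.

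The family is divided by where the enzyme works. Car2, Car3 and Car13 are cytosolic, and Car8 is a cytosolic relative that has lost the catalytic activity. Car4 is held on the outer cell surface by a lipid anchor, and Car9, Car12 and Car14 span the membrane with the active site outside the cell, where they act on pericellular pH and on bicarbonate for transporters. In human cells CA9 is a widely used marker of hypoxia, being a target of the hypoxia-inducible factor HIF.

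Of the 4 followed genes whose enzymes act outside the cell, 3 were higher in both EpiSC lines than in ESC. Car14 showed the widest gap, Car4 was close to equal in E3 and T9, Car12 was dim, and Car9 was near background on all arrays. The cytosolic genes had no common direction: Car13 was lower in both EpiSC lines, and Car2 and Car3 were highest in T9, where Car3 was dim. By a size rule of 2-fold in both EpiSC lines against OG2, 3 of the 7 genes were higher, where 6.77% of the 8688 measured genes were, and 1 was lower, where 7.07% were. Nothing is read from these counts or from the pattern by class. The genes were chosen on the same contrast, and both differences share the OG2 array.

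**Figure D1:**
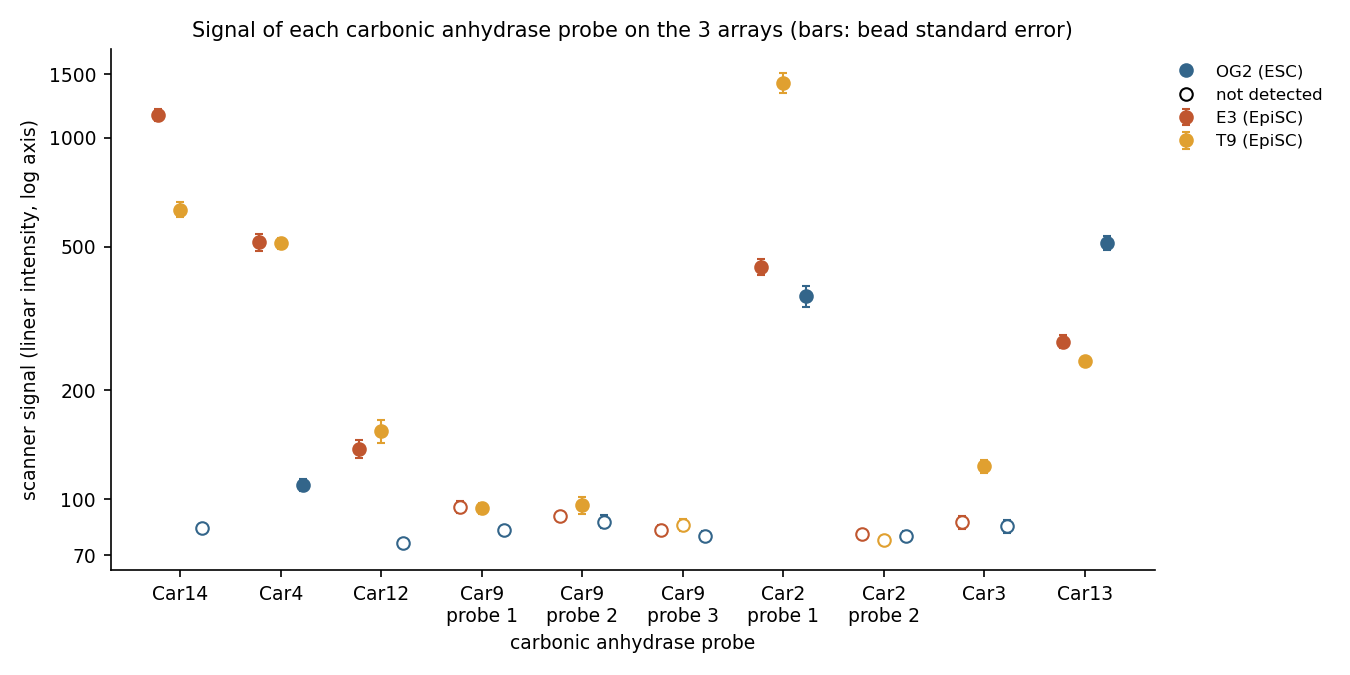
Scanner signal (linear intensity on a log axis) of each of the 10 carbonic anhydrase probes in E3, T9 and OG2, with bars for the standard error over the beads of the probe and open symbols for a detection p of 0.01 or more. Car14, Car4 and Car12 sit higher in both EpiSC lines, Car13 sits higher in OG2, and probe 1 of Car2 sits highest in T9.

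Car14, a transmembrane enzyme, gave a scanner signal of 1157 ± 45.6 in E3, 633 ± 30.4 in T9 and 83.5 ± 2.08 in OG2 (bead standard error, which covers the error within an array only). The OG2 value was not above background (detection value of 0.219, the share of background probes at least as bright), whereas both EpiSC values were brighter than all background probes. After background correction and normalization between arrays, which give a log2 intensity for each probe, the levels were 10.04, 9.11 and 4.35 in the same order. Where a gene is not above background on 1 side, its fold is given as a lower bound, computed against the dimmest detected probe of the array in question. Car14 was thus at least 36.0-fold higher in E3 and at least 18.9-fold higher in T9 than in OG2, and the EpiSC mean was above OG2 by at least 26.1-fold. With undetected values of every gene at their bounds, 3 of the 8688 measured genes had a higher EpiSC mean relative to ESC. E3 lay 1.91-fold above T9, a gap in signal of 524 with a bead standard error of 54.8.

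Car4, the lipid-anchored enzyme, was detected on all 3 arrays. Its signal was 514 ± 27.9 in E3, 510.2 ± 19.0 in T9, and OG2 had 109.6 ± 4.17. The EpiSC lines differed from each other by less than their bead error, and both stood apart from OG2. In normalized log2 intensity the levels were 8.77, 8.76 and 5.53, which put Car4 9.49-fold higher in E3 and 9.44-fold higher in T9 than in OG2. The EpiSC mean was 8.77 ± 0.0054 (SD, n = 2). On the same basis, 26 of the 8688 genes stood higher.

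Car12, another transmembrane enzyme, had a signal of 138 ± 8.18 in E3 and of 154 ± 11.0 in T9, and of 75.5 ± 1.62 in OG2, where it was not above background (detection value of 0.920). The levels were 6.17, 6.41 and 4.17. E3 and T9 differed by 16.5 in signal with a bead standard error of 13.7, and both lay well above OG2. At the bound, Car12 was at least 2.46-fold higher in E3 and at least 2.92-fold higher in T9.

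Car9 was measured by 3 probes, all of them close to background. The probe with the highest mean level gave 95.1 ± 3.74 in E3, 94.2 ± 3.16 in T9 and 82.1 ± 1.75 in OG2, with detection p-values of 0.01003, 0.00501 and 0.308, so that E3 lay just outside the limit of 0.01 and T9 inside it. The next probe was detected in T9 alone, at 96.1 ± 5.34 against 89.6 ± 2.59 in E3 and 86.7 ± 3.47 in OG2, and the last was not detected on any array. In T9 the normalized levels of these 2 probes were 4.81 and 4.89, beside 4.87 for the dimmest detected probe in OG2, and no fold is given for Car9.

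Promoter windows were looked up for the 4 extracellular enzymes, to set the gene that is known as a HIF target beside those that were higher in EpiSC. RefSeq (GRCm38.p6) gave a window for these 4 genes and none for Car2, Car3, Car8 and Car13. The 250 bases before the annotated start are printed 5′ to 3′ on the strand of the gene, and capitals mark the letters ACGTG, the core of the HIF site, read here on the opposite strand. The positions are chr3:95904686-95904935 (minus strand), chr11:84957504-84957753 (plus strand), chr9:66713436-66713685 (plus strand) and chr4:43506776-43507025 (plus strand).
Car14: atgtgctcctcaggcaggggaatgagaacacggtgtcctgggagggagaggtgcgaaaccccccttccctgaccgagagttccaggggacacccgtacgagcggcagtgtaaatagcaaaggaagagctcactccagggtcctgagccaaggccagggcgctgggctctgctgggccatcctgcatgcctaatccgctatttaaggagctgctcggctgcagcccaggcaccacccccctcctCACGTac
Car4: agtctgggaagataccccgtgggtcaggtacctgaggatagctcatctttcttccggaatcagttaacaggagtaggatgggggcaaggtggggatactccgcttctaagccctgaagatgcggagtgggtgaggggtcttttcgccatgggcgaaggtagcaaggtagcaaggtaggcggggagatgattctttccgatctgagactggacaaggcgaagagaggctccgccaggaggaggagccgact
Car12: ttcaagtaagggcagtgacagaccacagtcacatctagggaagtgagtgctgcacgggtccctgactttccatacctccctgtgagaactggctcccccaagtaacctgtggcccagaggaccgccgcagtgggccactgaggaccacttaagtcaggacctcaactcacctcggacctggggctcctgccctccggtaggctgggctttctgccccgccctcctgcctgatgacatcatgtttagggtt
Car9: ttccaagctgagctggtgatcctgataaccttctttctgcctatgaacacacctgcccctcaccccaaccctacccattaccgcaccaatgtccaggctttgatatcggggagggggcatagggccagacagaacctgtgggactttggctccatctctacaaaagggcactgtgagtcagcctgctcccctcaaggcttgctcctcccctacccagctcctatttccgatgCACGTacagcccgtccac

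The motif ACGTG and its variant GCGTG, together with the GC box, written GGGCGG, and the TATA box, written TATAAA, were searched on both strands in the whole window of 300 bases, which runs to 50 bases after the start. ACGTG occurred once in Car9, beginning 18 bases before the start, once in Car14, 7 bases before it, and once in Car4, beginning at the base 3 after it and therefore not printed. None of these matches lay within a CACGTG. Car12 held no ACGTG, and none of the 4 windows held GCGTG. Of all 32851 promoter windows in the table, 19.6% held ACGTG and 32.4% GCGTG. A GC box was found in Car12 (35.7% of all windows), and TATAAA in Car4, 43 bases after the annotated start (13.6%). CG pairs numbered 13 in Car14, 15 in Car4, 9 in Car12 and 5 in Car9, against a median of 7. These matches describe the letters of the windows only.

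Among the cytosolic enzymes, Car2, the most active and most widely expressed form, differed mainly between the EpiSC lines. Its signal was 439 ± 21.3 in E3, 1419 ± 92.4 in T9, and OG2 had 365 ± 24.9. Normalized levels were 8.52, 10.41 and 8.29. T9 stood above both other lines, and E3 lay near OG2. In RNA of a whole culture, a higher level per cell and a larger share of expressing cells cannot be told apart. T9 was 4.34-fold above OG2 and 3.71-fold above E3, while E3 was 1.17-fold above OG2, a gap in signal of 74.4 with a bead standard error of 32.7. A second Car2 probe was at background on all 3 arrays (signals of 80.1, 77.0 and 79.1), so the Car2 values rest on 1 probe. Its sequence was not available for a check against strain variants, and an effect of such variants was not tested.

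Car3, an enzyme of low activity that is abundant in muscle and fat, was detected in T9 only. The signal was 123 ± 4.96 there, against 86.4 ± 3.58 in E3 and 84.2 ± 3.46 in OG2, and the levels were 5.80, 4.40 and 4.38. Car3 was thus at least 1.91-fold higher in T9 than in E3 and at least 1.90-fold higher than in OG2. Like Car2, it was highest in T9, though dim there. E3 and OG2 cannot be compared for Car3, since neither was above background.

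Car13, a cytosolic enzyme, was the only one of the 7 genes with its highest value in ESC. The signal was 273 ± 11.3 in E3, 241 ± 6.71 in T9 and 513 ± 23.0 in OG2, with levels of 7.69, 7.41 and 8.87. Both EpiSC lines lay below OG2, E3 by 2.27-fold and T9 by 2.76-fold, and they differed from each other by 1.22-fold.

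In the RefSeq gene order of chromosome 3, Car13, Car1, Car3 and Car2 follow one another in a cluster, and no other protein-coding gene lies between them. The members of that cluster measured here had different patterns, Car13 highest in OG2 and its relatives Car3 and Car2 highest in T9. Car14 is also on chromosome 3 but outside the cluster. Car1 had no probe in the table used here.

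**Figure D2:**
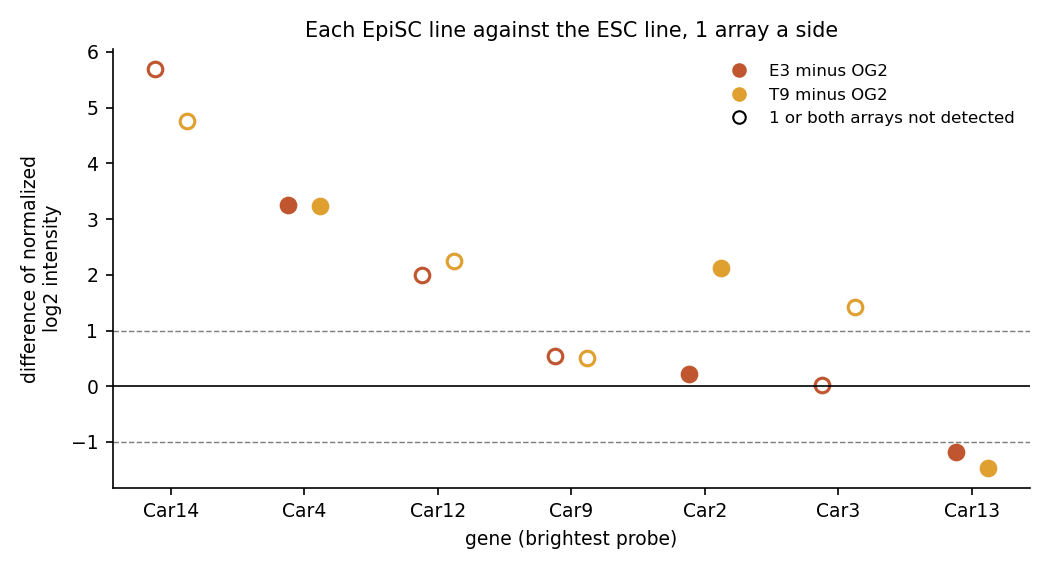
Difference in normalized log2 intensity of each EpiSC line from OG2 for the 7 genes, by the probe with the highest mean level, with dashed lines at 2-fold and open symbols where at least 1 of the arrays compared did not detect the gene (those measured values exceed the bounds). Car14, Car4 and Car12 lie above the upper dashed line in both EpiSC lines and Car13 below the lower one. Car2 and Car3 lie above the upper dashed line in T9 only.

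Between the EpiSC lines, 2 of the 7 genes, Car2 and Car3, were at least 2-fold apart in measured level, where 5.79% of the 8688 genes were, and 3.38% were at least 2-fold higher in T9. Car3 stayed just under 2-fold at its bound. A larger gap between E3 and T9 than that of Car2 was found for 96 of the 8688 genes, and 579 had a larger gap than Car14. Car4, with a gap of 0.0076 on the log2 scale, had 8520 genes above it. Like Car3, other genes were detected in T9 and in neither other line. From the endoderm list these were Foxa2 and Sox17, at 6.27 and 5.53, and from the trophoblast list Cdx2 and Eomes, at 5.60 and 5.58. The fibroblast marker Pdgfra and the HIF pathway gene Vhl, at 4.97 and 4.88, were too. In the same endoderm and trophoblast lists Apoa1 was detected in E3 alone, at 5.22, and Gata3 in OG2 alone, at 5.43. The other measured genes of those lists were detected on all 3 arrays. Whether Foxa2, Sox17, Cdx2 and Eomes mark extraembryonic cells or other cells in EpiSC was not tested. The genes detected in T9 alone were picked after their values were seen, and the share of all measured genes with that pattern is not given. T9 had the most detected probes, 11171 against 10791 in E3 and 10768 in OG2. Of 10 extraembryonic endoderm markers with a probe, 6 were measured and 0 passed the test between EpiSC and ESC, though Lama1 passed as lower in EpiSC with median scaling, cyclic loess or a detection limit of 0.05, and the summed intensity of the 6 was 124 in E3, 204 in T9, with 258 for OG2. Gata4, Afp, Ttr and Sox7 were not detected on any array. Of 9 trophoblast markers 6 were measured, 0 passed, and their sum was 821, 1755 and 2476, most of it from Krt8 and Tfap2c. Without these 2 genes the sum was 33.7, 101 and 74.3. Of 8 erythroid and osteoclast markers with a probe, 3 were measured, 0 passed, and their sum was 33.6, 53.8 and 24.6. The part of other cell types in the T9 values of Car2 and Car3 was not tested.

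**Figure D3:**
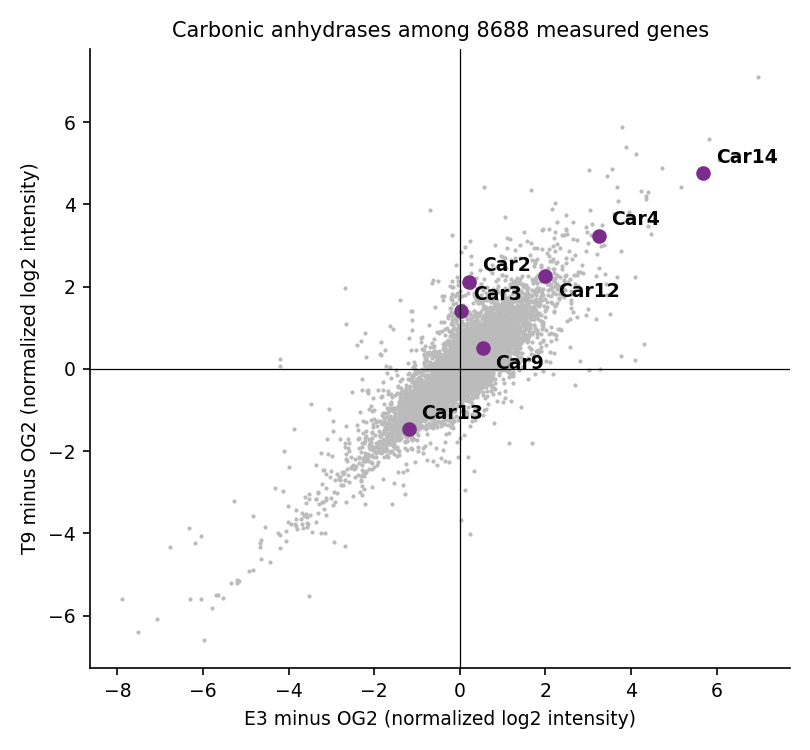
Difference of T9 from OG2 against that of E3 from OG2 (normalized log2 intensity) for 8688 measured genes in grey, with the 7 carbonic anhydrases in purple. Both axes share the OG2 array, which by itself draws the points along the diagonal, and Car2 and Car3 lie above the diagonal through their T9 values.

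Feeder cells would add fibroblast transcripts to the EpiSC arrays. Of 14 fibroblast markers with a probe 8 were measured, 0 rose in EpiSC and 1 fell, Lox, whose product crosslinks collagen (at least 11.5-fold, limma adjusted p = 0.0342). Summed over the 8, the background-corrected intensity was 376 for E3, 311 for T9 and 635 for OG2, and without Lox the sums were 365, 304 and 339. The fibroblast surface gene Thy1 was brightest in E3, at a level of 7.77 against 5.74 in T9 and 5.20 in OG2, a log2 difference of 1.55 ± 0.92 for the EpiSC mean that did not pass. The collagen genes Col5a1 and Col6a1 were highest in T9, at levels of 7.26 and 5.78. On the log2 scale T9 lay above E3 by 1.06 and 0.88 for these genes, and above OG2 by 0.28 and 0.91. Pdgfra was detected in T9 alone, while Col1a1, Dcn, Lum and Lox were highest in OG2. The collagen genes Col1a2 and Col3a1 and the matrix gene Postn were not detected on any array. The part of feeder RNA in the values of Car14, Car4 and Car12 was not tested.

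For the 4 genes at least 2-fold apart from OG2 in both EpiSC lines, the most alike genes were those at the smallest Euclidean distance over the 3 arrays, each gene being centred on its own mean log2 level. For Car14 these were the sulfotransferase gene Chst1 (distance 0.29 on the log2 scale), the HIF prolyl hydroxylase gene Egln3 (0.38) and the thyrotropin-releasing hormone gene Trh (0.64). For Car4 they were the glycolytic enzyme gene Tpi1 (0.15), the stress-response gene Ddit4 (0.19) and Vrtn (0.20). Dpysl5 (0.033), the glucose transporter gene Slc2a1 (0.071) and Crmp1 (0.088) came nearest to Car12, Dpysl5 and Crmp1 being related genes of the collapsin response mediator family. Car13 was nearest to Gipc2 (0.035), Relch (0.044) and the growth arrest gene Gadd45a (0.049). Car14, Chst1, Egln3, Car12, Dpysl5 and Vrtn were not detected in OG2, and Gipc2 in neither EpiSC line, so their distances rest in part on background values. With 3 arrays such nearness is a description of shape only, and small distances are easier to find among the many genes of modest change.

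**Figure D4:**
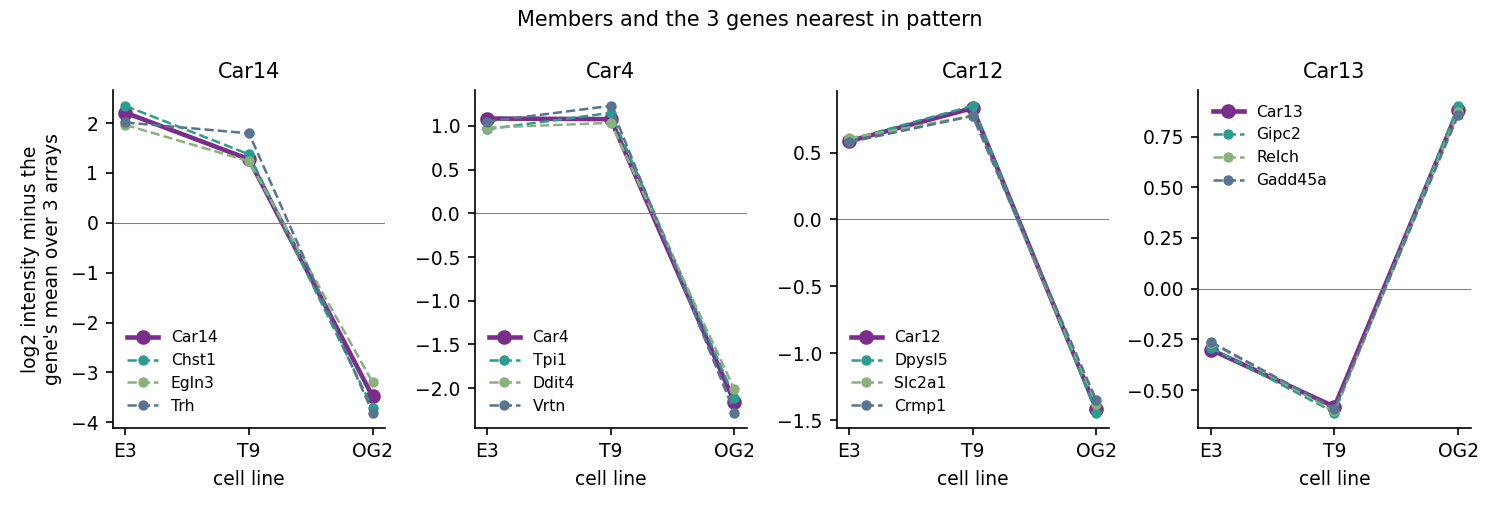
Normalized log2 intensity minus the mean of each gene over the 3 arrays, for the 4 genes that differed 2-fold in both EpiSC lines (solid purple) and the 3 genes nearest to each (dashed); the lines only join the points, and the scale differs between panels. The nearest gene was Chst1 for Car14, Tpi1 for Car4, Dpysl5 for Car12 and Gipc2 for Car13.

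The other carbonic anhydrases are those that the choice of the 8 genes left out. They were tested with limma, both EpiSC arrays against the ESC array, with Benjamini-Hochberg adjustment over 12603 tested probes. This list and those below were fixed with earlier results of these data known, so their p-values are not independent of the choice. In this fit 1.15% of tested probes passed (36 higher and 109 lower). Median scaling gave 110 and 186, cyclic loess 122 and 222, and a detection limit of 0.05 gave 127 and 224. An offset of 50 gave 98 calls in all, and the authors' processed table and the absence of a filter on dim probes gave 0 each (2899 and 4462 probes at an unadjusted p under 0.05 in limma), so that all calls of single genes given here end under these last settings. By gene, each taken by its brightest probe, 0.299% of genes passed as higher and 0.921% as lower. Of the 8 other genes 5 had a probe, and only Car11, whose product lacks the catalytic activity and is secreted, was detected. Its signal was 153 ± 7.49 in E3, 150.2 ± 10.5 in T9 and 96.8 ± 5.91 in OG2, with levels of 6.45, 6.35 and 5.04. It was 2.57-fold higher in the EpiSC mean, a log2 difference of 1.36 ± 0.26 that did not pass (limma adjusted p = 0.0939). All 3 probes of the mitochondrial gene Car5b, and the single probes of Car6, Car7 and Car15, were at background on the 3 arrays.

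The transporters and pumps that work with these enzymes were tested in the same way, in lists drawn up by function with earlier results known. Of 4 measured bicarbonate transporter genes 1 fell, 0 rose and 3 did not pass. The anion exchanger gene Slc4a3, which trades bicarbonate for chloride, fell by 4.12 ± 0.26 in log2 intensity, a 17.4-fold decrease (adjusted p = 0.0317 with limma), with levels of 5.62 in E3 and 5.51 in T9 while OG2 lay at 9.69. A second Slc4a3 probe also passed, with a log2 difference of -3.84 ± 0.25, and another was lower at -2.51 ± 0.31 with an adjusted p of 0.0637. The related exchanger gene Slc4a2 differed by -0.96 ± 0.39 and the transporter gene Slc4a8 by -1.01 ± 0.26, and neither passed. The list median was -0.99, beside 0.047 over all measured genes. None of 6 measured genes of sodium-proton exchange passed with limma (smallest adjusted p 0.164), and the scaffold gene Slc9a3r1 had a log2 difference of 0.88 ± 0.25.

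Of 3 measured genes of lactate and proton cotransport 2 rose and 1 did not pass. The lactate dehydrogenase gene Ldha rose 7.46-fold and the lactate exporter gene Slc16a3 at least 5.98-fold (limma adjusted p of 0.0424 and 0.0444), although a second tested Slc16a3 probe differed by -0.65 ± 0.25 without passing. Emb, which encodes a partner protein of lactate transporters, was 10.9-fold higher in the mean, with a limma adjusted p of 0.0647, and it passed with median scaling, with cyclic loess and with a detection limit of 0.05, which made 3 of 3. Slc16a1 and the chaperone gene Bsg were not detected on any array.

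Of 17 measured proton pump genes 0 passed with limma (smallest adjusted p 0.111), with a list median of -0.60. Atp6v1c1, a subunit of the vacuolar pump, had a log2 difference of -1.11 ± 0.28, and Atp4a, the catalytic subunit of the gastric pump, was not detected in OG2 and stood at least 1.90-fold higher. Of 7 measured enzymes that use bicarbonate as a substrate 0 passed (smallest adjusted p 0.155). The propionyl-CoA carboxylase gene Pccb had a log2 difference of -0.74 ± 0.26 and the fatty acid synthesis gene Acaca one of 0.69 ± 0.27, while the urea cycle gene Cps1 was not detected in either EpiSC line. Of 12 measured genes of zinc handling 0 passed (smallest adjusted p 0.0620). The zinc importer gene Slc39a8 stood at least 9.86-fold above ESC in the mean of both EpiSC lines and had that smallest p, and it passed under the same 3 alternatives, while Slc39a4 differed by -1.72 ± 0.28 and the metallothionein gene Mt2 by -1.66 ± 0.25.

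Of 15 measured genes of the HIF pathway and its targets 2 rose, 0 fell and 13 did not pass. Egln3 was at least 20.03-fold higher and Ddit4 8.12-fold (limma adjusted p of 0.0390 and 0.0386). A second Egln3 probe, detected in E3 only, differed by 0.44 ± 0.31. The hypoxia-responsive genes Ndrg1 (16.4-fold), Vegfa (4.86-fold) and Slc2a1 (4.203-fold) and the prolyl hydroxylase gene Egln1 (at least 2.55-fold) were higher in the mean and did not pass, with adjusted p from 0.0520 to 0.0712. Ndrg1, Vegfa and Slc2a1 passed with median scaling and with cyclic loess, which made 5 risen genes of 15. Egln1 joined them with a detection limit of 0.05, which made 6, while without background correction 3 passed (Ddit4, Vegfa and Slc2a1). Calls grew over the whole array too. Probes that passed as higher numbered 36 in the main fit, 110 with median scaling and 122 with cyclic loess. With a detection limit of 0.05 they numbered 127, and without background correction 53. The median of the 15 was 1.397, and 1.08 once undetected values were set to their bounds. Car9, which is not on this list, was too near background on all arrays for a difference to be read. The calls of Slc16a3 and Egln3 ended with a larger background offset or without background correction.

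**Figure D5:**
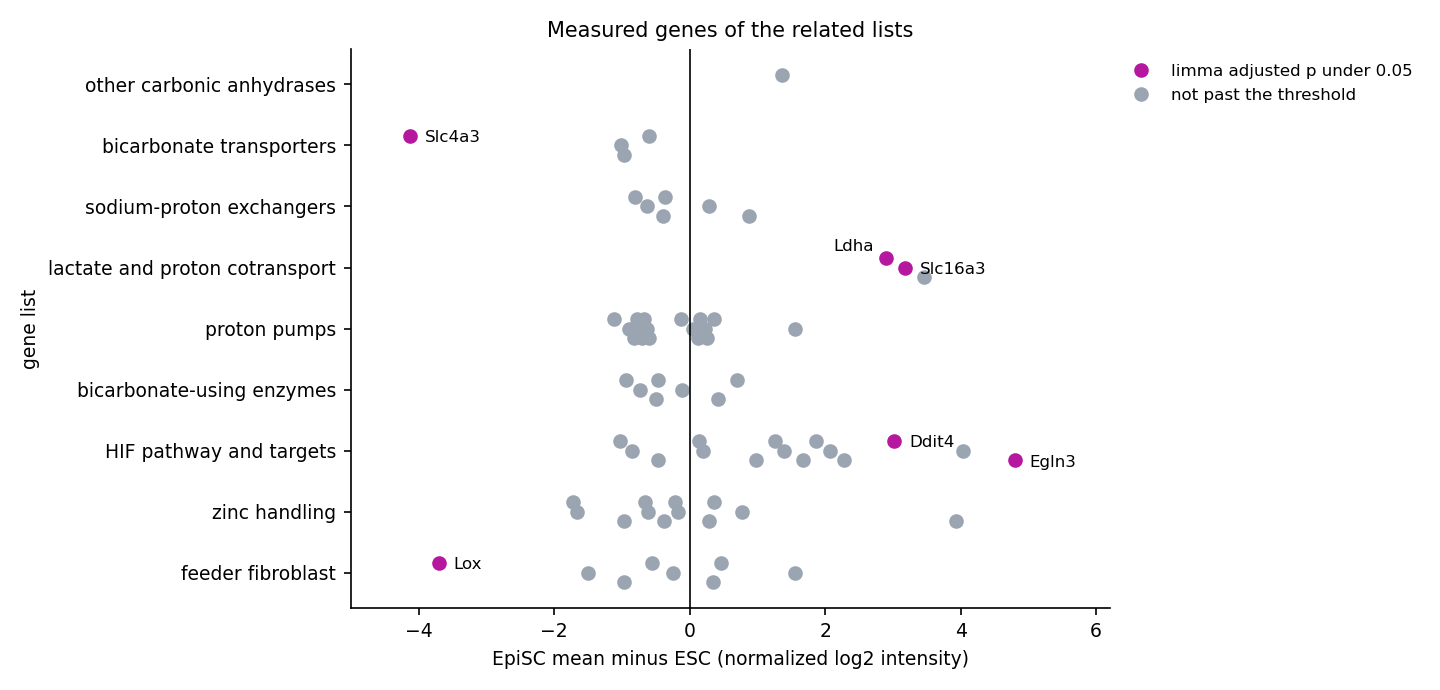
Log2 difference between the EpiSC mean and ESC (normalized intensity) for each measured gene of 9 lists, with genes past a limma adjusted p of 0.05 in magenta. Slc4a3 and Lox lie to the left, and Ldha, Slc16a3, Ddit4 and Egln3 to the right.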

How the data were processed

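Total RNA (400 ng) was amplified with 12 h of in vitro transcription, Cy-3 labelled and hybridised to bead arrays, as the labels' protocols say. Groups came from the sample titles: E3 and T9 are EpiSC replicates 1 and 2 and OG2 is the ESC sample, with numbers given in accession order. Per the file headers, the deposited tables give a linear signal intensity, its bead standard error and a detection p-value for each of 25697 probes, and the intensity values were deposited without background subtraction or normalization. BeadStudio is named in the submitters' processing notes, with no version. The authors' deposited table of processed intensity values was an alternative only. On the arrays 10791, 11171 and 10768 probes were detected in E3, T9 and OG2, with median bead errors of 4.18%, 4.17% and 4.36% of the signal, and the number of arrays limits the precision.

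Background was corrected with limma's nec (offset 16), and log2 values were quantile normalized between arrays. The offset pulls dim probes together and understates their folds. The 12603 probes that any array detected (detection p below 0.01) were tested with lmFit and eBayes, two-sided, at a Benjamini-Hochberg adjusted p of 0.05. These p-values and the limma SEs rest on the spread between 2 lines and cover no repeat culture. With eBayes that spread is drawn towards a value pooled over all probes. Genes alike in E3 and T9 thus share an SE near 0.25, which is not their own measured error. For Mt2 it was 0.25 at an EpiSC SD of 0.019, and for Slc4a3 0.26 at an SD of 0.077. Genes were named from the platform's probe table (23978 probes with 1 symbol, 1719 with none) and represented by the probe with the highest mean level. The members, the 15 other lists and the rules were chosen with earlier results of these data known. Named were the members, the other carbonic anhydrases, list genes past the threshold, and up to 4 further genes per list with the largest difference. Also named were the 3 genes nearest in pattern to members 2-fold apart in both lines, and list genes not detected. Chosen after seeing values were Pou5f1, the genes detected in T9 alone, and the markers set beside those or beside Thy1. Alternatives changed the normalization, background, filter, probe choice, source of values and EpiSC lines used. Analyses used R 4.3.3, limma 3.58.1 and Python 3.11.15.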

Additional observations from a re-analysis of the deposited data

How the results depend on the processing

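The 145 probes past the threshold became 296 with median scaling, 344 with cyclic loess and 351 with a detection limit of 0.05. They became 0 with the authors' processed table and 0 without a filter on dim probes, where 2899 and 4462 probes had an unadjusted p under 0.05 in limma. The cause was not tested, and these 2 settings ended the calls of all genes named as risen or fallen. With an offset of 50 the naive gene Pecam1 dropped out, which left 5 of 9 fallen. With cyclic loess the epiblast gene Otx2 joined, which made 4 of 7 risen. The 3 members higher in both EpiSC lines were Car14, Car4 and Car12 under each alternative except no background correction, where Car12 dropped out, and the T9 array alone, where Car2 and Car3 joined. Leaving out each EpiSC line in turn gave counts of 3 to 5. Car13 was at least 2-fold lower under each alternative except no background correction, which gave 0. The 2 members apart between E3 and T9 became 1, Car2, with an offset of 50, with no background correction, and with undetected values at their bounds, an alternative chosen after seeing the data. The EpiSC mean minus ESC difference of Car14 ranged from 3.30 to 6.74 on the log2 scale, that of Car4 from 2.17 to 3.68, that of Car12 from 0.91 to 3.23 and that of Car13 from -1.46 to -1.08, and no result reversed. With E3 alone Car2 differed from OG2 by 0.23, and with T9 alone by 2.12. No paired analysis was possible because ESC has 1 array, and with 1 EpiSC array left out limma has no residual degrees of freedom. Signals near background, as for Car9, Car3 and the OG2 values of Car14 and Car12, give bounds and not levels.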
